A study of Mus musculus with 26 samples.

Results

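The genes analysed here make, break down or bind hyaluronan, and they are the 3 hyaluronan synthases Has1, Has2 and Has3, the precursor enzyme Ugdh, the hyaluronidases Hyal1 and Hyal2, and the receptor Cd44. These 7 of the 45318 genes in the count tables were chosen by name, and the set was selected on the measured Has2 level, which differs between the 2 knockout clones in these same libraries. Values that compare the clones are therefore given for these genes as a description, with no test. All 7 genes passed the filter on low counts that left 15023 genes to be tested.

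Hyaluronan is a long unbranched sugar polymer of the extracellular matrix. The synthases sit in the plasma membrane, join UDP-glucuronic acid and UDP-N-acetylglucosamine in alternation and push the growing chain out of the cell, where hyaluronidases cut it and CD44 binds it at the cell surface. In mammary tumors the polymer and CD44 have long been studied for their part in cell adhesion, migration and invasion.

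The RNA-seq libraries came from 4T1 cells, a mammary tumor line of BALB/c mice, and the study asked which transcripts change when the long noncoding RNA MaTAR25 is lost. KO1 (3 libraries) and KO2 (4 libraries) are single-cell clones with the genotype MaTAR25-/-, made with Cas9 and paired guide RNAs that delete sequence over the MaTAR25 start site. The control cells (2 libraries, genotype wild type) went through the same procedure with a guide RNA against Renilla luciferase, and the labels give them only by number. All cells were grown in DMEM with fetal bovine serum. Each knockout is thus 1 clone, so the effect of the deletion and the particular history of a clone cannot be told apart. Nothing says that the libraries of a group came from separate cultures, and p-values measure only the spread between these libraries.

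Gene counts summed to 25367211 to 61110585 per library. As a check of the labels, the MaTAR25 gene (1200007C13Rik) was counted 35 and 30 times in control and 0 to 11 times in each KO library, and a count of 0 allows up to 3. Its level fell by 2.63 ± 0.82 (SE) on the log2 scale in KO cells (edgeR adjusted p = 0.0561), all 7 KO libraries lay below both controls, and the call was lost without control replicate 1 (adjusted p = 0.260) or 2 (adjusted p = 0.300). Markers of mammary epithelium summed to between 2391 and 7788 CPM, that is, counts scaled to a library of fixed size, and 9 of the 10 passed the filter, whereas fibroblast markers summed to at most 52.7 CPM, leukocyte markers to at most 29.4 CPM and endothelial markers to at most 1.77 CPM. In bulk RNA such as this, fewer cells of a type and less RNA per cell cannot be told apart.

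Against control, Ugdh and Hyal1 were called higher in KO cells, and none of the 7 genes was called lower. These 2 of 7 genes called higher stand against 11.9% of all tested genes called higher and 22.6% called in either direction. Has2 is 1 of the 5 genes not called, and the way it was chosen widens its spread within the KO group. The median log2 fold change of the 7 genes was 0.72, against 0.06 over all tested genes. By clone, as a description, this median was -0.23 in KO1 and 0.87 in KO2, against 0.02 and 0.03 over all tested genes. There was no overlap between KO and control for 3 of the 7 genes, Ugdh, Hyal1 and Hyal2, as for 34.4% of all tested genes. In KO1 alone the same test called 2 of the 6 genes other than Has2 higher, Ugdh and Hyal1, against 15.9% of all genes called higher and 31.6% in either direction. In KO2 alone it called 4 of these 6 higher, Has3, Ugdh, Hyal1 and Hyal2, against 16.5% higher and 31.4% in either direction. Libraries of KO1 did not overlap the controls for 4 of the 7 genes and those of KO2 for 4, shares set beside 66.9% and 46.9% of all tested genes. Both clones were compared with the same 2 control libraries, and without either control replicate 1 or 2 only Ugdh of these genes stayed called in each of the 3 comparisons with control.

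**Figure D1:**
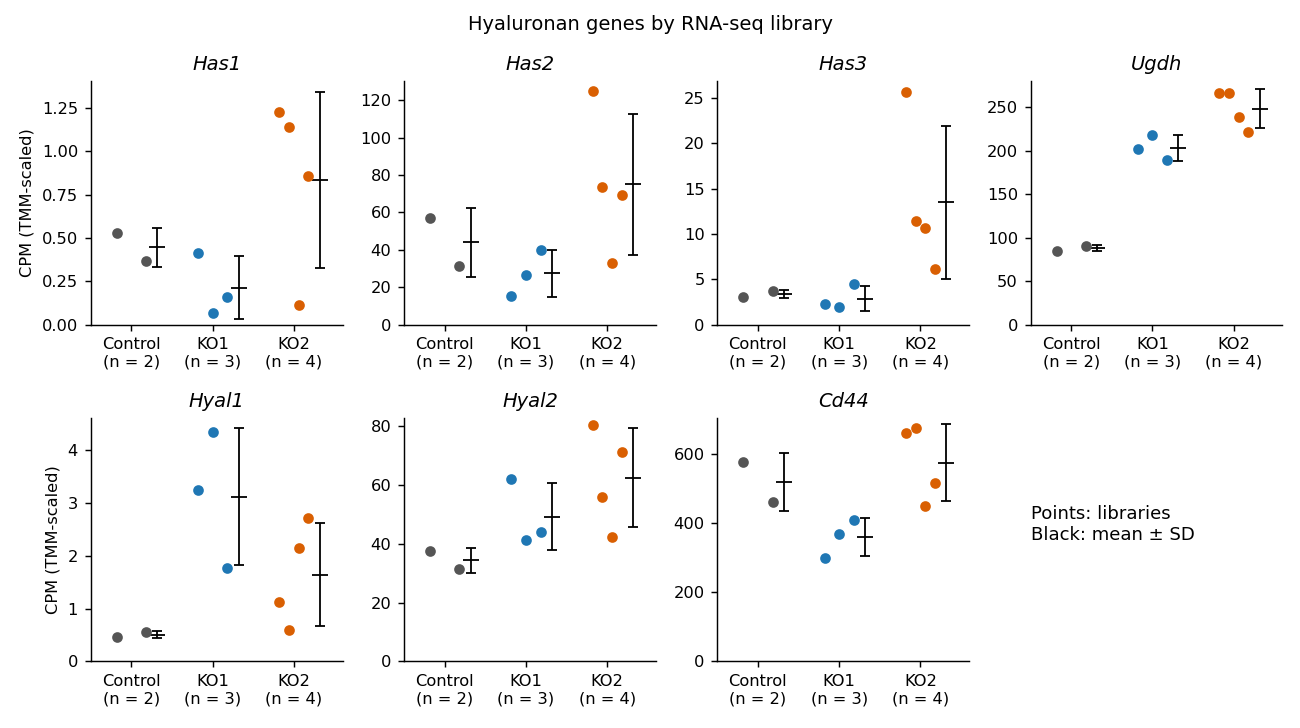
Level of each of the 7 hyaluronan genes in CPM (vertical axes, each starting at 0) in the control, KO1 and KO2 libraries. Points are libraries and black bars are the mean ± SD. Ugdh in all 7 KO libraries lay between 189 and 267 CPM, above both controls, and Has2 in KO2 ranged from 33.2 to 125 CPM.

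Scaled to exon length, so that genes can be compared, Cd44 was the most abundant of the 7 transcripts in control cells at 76.8 ± 12.3 CPM per kb (SD, n = 2). Ugdh at 12.98 ± 0.522, Hyal2 at 10.4 ± 1.29 and Has2 at 10.4 ± 4.34 CPM per kb came next. Ugdh lay above Hyal2 in both libraries, and Has2, at 13.5 and 7.35 CPM per kb, overlapped both. Has3 lay far lower, at 0.533 ± 0.0719 CPM per kb. Hyal1 at 0.134 ± 0.0165 and Has1 at 0.0988 ± 0.0252 CPM per kb were lowest. The Hyal1 level per kb may be too low, because 51.9% of its exon bases are shared with other genes. In KO1 the order was Cd44 (53.0), Ugdh (30.1), Hyal2 (14.9), Has2 (6.47), Hyal1 (0.824), Has3 (0.452) and Has1 (0.0474 CPM per kb). In KO2 the mean of Has3, 2.12 ± 1.32 CPM per kb (SD, n = 4), stood above that of Hyal1, 0.435 ± 0.256 CPM per kb, and Has2 at 17.7 ± 8.90 and Hyal2 at 18.9 ± 5.10 CPM per kb were within their spread of each other.

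Has2 encodes the synthase that is the main source of hyaluronan in many mesenchymal and tumor cells, and occupies chr15:56665627-56694539 (GRCm38, minus strand). Control replicates 1 and 2 had 57.2 and 31.1 CPM of Has2, the KO1 replicates 15.4, 26.6 and 40.2 CPM, and the KO2 replicates 125, 73.4, 33.2 and 69.1 CPM. The clones moved to opposite sides of the control mean, 2 of 3 KO1 libraries lay below both controls and 3 of 4 KO2 libraries above both, and the ranges of the clones overlapped through KO2 replicate 3. The mean was 44.2 ± 18.4 CPM in control (SD, n = 2), 27.4 ± 12.4 CPM in KO1 (n = 3) and 75.1 ± 37.7 CPM in KO2 (n = 4). On the log2 scale this was -0.69 ± 0.52 (SE) for KO1 against control, 0.77 ± 0.52 for KO2 against control and -1.45 ± 0.46 for KO1 against KO2, values given without a test because they chose the set. The KO1 value was -0.17 without control replicate 1, -1.05 without control replicate 2, -0.40 without KO1 replicate 1 and -1.07 without KO1 replicate 3. The KO2 value was 1.28 without control replicate 1, and 0.40 and 0.41 without control replicate 2 and KO2 replicate 1. Between the clones the value stayed between -1.84 and -1.10 over 14 alternatives. A gene chosen for a difference between the clones has a wide spread over the pooled KO libraries. A pooled test of Has2 therefore cannot show that it was unchanged. With all KO libraries as 1 group the difference from control was 0.31 ± 0.66 (edgeR adjusted p = 0.787, exact permutation p = 0.889, two-sided). Its sign turned to -0.06 without control replicate 2 and to -0.04 without KO2 replicate 1.

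The control libraries themselves differed for Has2 by more than for any other of these genes in relation to their mean. Has2os, a noncoding gene on the opposite strand whose exons share 182 bases with Has2 (4.30% of the Has2 exon bases), was at 4.26 and 2.68 CPM in control, 0.590, 1.16 and 1.24 CPM in KO1, and 3.32, 1.77, 1.08 and 6.48 CPM in KO2. All 3 KO1 libraries lay below both controls. KO1 was lower than control by -1.81 ± 0.68 on the log2 scale (edgeR adjusted p = 0.0850), a call lost without any 1 of the 5 control and KO1 libraries (adjusted p = 0.140 to 0.363), while KO1 against KO2 gave -1.68 ± 0.61 (adjusted p = 0.102, and 0.0250 with DESeq2). The sources used here do not say whether the strand of a read was used in counting, so reads of the shared bases cannot be assigned with certainty.

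Has3 encodes a synthase known for making shorter chains, and lies on chromosome 8 from 106870242 to 106884566. It was at 3.07 and 3.72 CPM in control, 2.23, 1.99 and 4.44 CPM in KO1, and 25.7, 11.5, 10.7 and 6.19 CPM in KO2. Every KO2 library lay above every control and KO1 library, with KO2 replicate 1 highest. KO2 was 1.99 ± 0.59 higher than control on the log2 scale (edgeR adjusted p = 0.0383), a mean of 13.5 ± 8.43 against 3.40 ± 0.459 CPM and 3.97-fold. The call was lost without control replicate 1 (adjusted p = 0.229) or 2 (adjusted p = 0.184). KO1 against control was -0.23 ± 0.57 (adjusted p = 0.796), and all KO libraries against control 1.40 ± 0.92 (adjusted p = 0.330, exact permutation p = 0.417). Has3 shares 352 exon bases (5.52%) with Chtf8 on the opposite strand.

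Has1, the synthase gene on chromosome 17 (17843323 to 17855205), had 2 to 44 counts per library. That was 0.527 and 0.366 CPM in control, 0.414, 0.0663 and 0.162 CPM in KO1, and 1.23, 1.14, 0.113 and 0.858 CPM in KO2. The groups overlapped, and at this depth no difference from control was detectable for KO cells (log2 0.33 ± 0.98, edgeR adjusted p = 0.852), for KO1 (adjusted p = 0.465) or for KO2 (adjusted p = 0.486).

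Of the length-scaled transcripts of the 3 synthases, Has2 made up 93.7 ± 2.86% in control (SD, n = 2), 92.4 ± 2.96% in KO1 (n = 3) and 88.1 ± 4.68% in KO2 (n = 4). For Has3 the share was 3.42 and 7.28% in control, 8.56, 4.72 and 6.81% in KO1, and 11.9, 9.26, 17.6 and 5.56% in KO2. The groups overlapped, so Has2 remained the main synthase transcript in every library while the summed level ranged from 4.09 CPM per kb in KO1 replicate 1 to 33.7 CPM per kb in KO2 replicate 1.

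**Figure D2:**
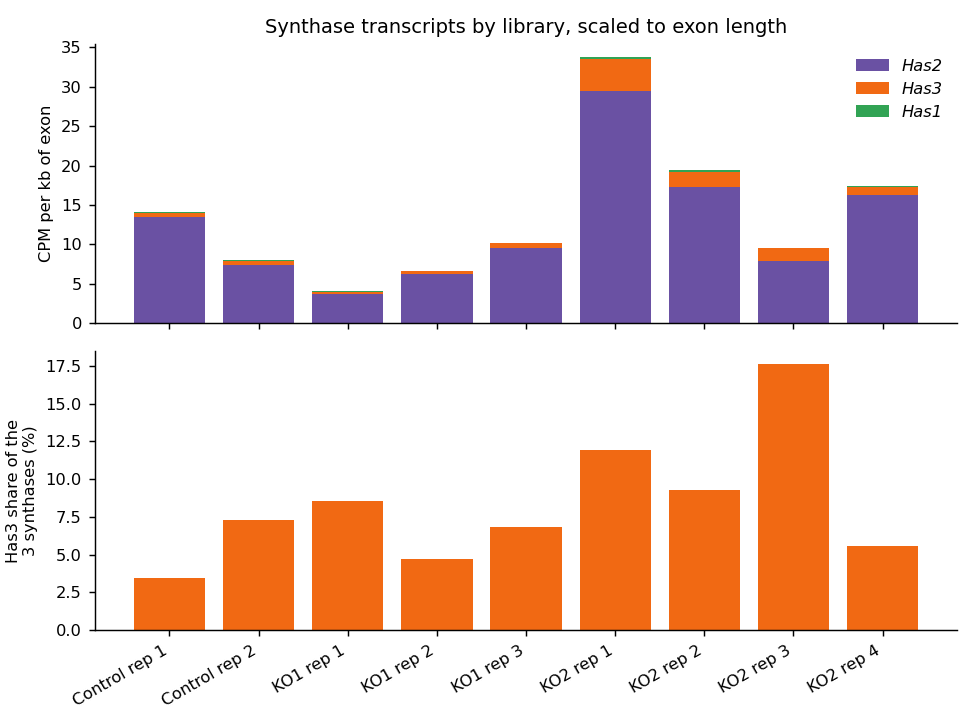
Upper panel, summed level of the 3 synthase transcripts in CPM per kb of exon in each library, split into Has2, Has3 and Has1. Lower panel, the share of Has3 in that sum in percent, from 3.42% in control replicate 1 to 17.6% in KO2 replicate 3.

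Ugdh encodes UDP-glucose dehydrogenase, which makes the UDP-glucuronic acid that synthases use, and lies on chromosome 5 from 65413221 to 65435949. It was at 85.2 and 90.1 CPM in control, 202, 218 and 189 CPM in KO1, and 267, 267, 238 and 221 CPM in KO2. All 7 KO libraries exceeded both controls, and the 4 KO2 libraries exceeded the 3 KO1 libraries. The mean rose 2.61-fold, from 87.7 ± 3.52 CPM (SD, n = 2) to 229 ± 30.02 CPM (n = 7), and the log2 fold change was 1.38 ± 0.18 (edgeR adjusted p = 0.00181, exact permutation p = 0.0278, the smallest that 36 splits allow). For KO1 alone it was 1.21 ± 0.15 (adjusted p = 0.00113), and for KO2 alone 1.502 ± 0.15 (adjusted p = 0.000566). Under the 16 alternatives the pooled log2 fold change stayed between 1.34 and 1.44 with an adjusted p of at most 0.0512.

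Hyal2 encodes a hyaluronidase anchored at the cell surface, which cuts long chains into intermediate fragments, and lies on chromosome 9 from 107567945 to 107572779. It was at 37.4 and 31.4 CPM in control, 62.1, 41.3 and 44.0 CPM in KO1, and 80.3, 56.0, 42.2 and 71.1 CPM in KO2. All KO libraries lay above both controls. The mean was 34.4 ± 4.26 CPM in control and 56.7 ± 15.3 CPM in KO cells, a log2 difference of 0.72 ± 0.28 that did not pass the threshold of 0.1 (edgeR adjusted p = 0.115, exact permutation p = 0.0556). It passed with DESeq2 (adjusted p = 0.0803), in the fit with 3 groups (adjusted p = 0.0836), without KO1 replicate 2 (adjusted p = 0.0918) and without KO2 replicate 3 (adjusted p = 0.0940). KO2 rose by 0.86 ± 0.28 (adjusted p = 0.0528), a call lost without control replicate 1 (adjusted p = 0.182) or 2 (adjusted p = 0.297), and KO1 differed by 0.52 ± 0.29 (adjusted p = 0.222), with an adjusted p of 0.0763 when KO2 was left out of the fit.

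Hyal1, its neighbour on the same chromosome from 107576927 to 107581710, encodes the lysosomal hyaluronidase that cuts such fragments further. It was at 0.461 and 0.549 CPM in control, 3.23, 4.35 and 1.76 CPM in KO1, and 1.12, 0.590, 2.15 and 2.72 CPM in KO2. All KO libraries lay above both controls, KO2 replicate 2 by the least. The log2 fold change was 2.17 ± 0.72 in KO cells (edgeR adjusted p = 0.0715, exact permutation p = 0.0556), 2.62 ± 0.69 for KO1 (adjusted p = 0.0247), and 1.71 ± 0.65 for KO2 (adjusted p = 0.0866). The pooled call was lost without control replicate 1 (adjusted p = 0.370), control replicate 2 (adjusted p = 0.321) or KO1 replicate 1 (adjusted p = 0.101). The KO1 call was lost without control replicate 1 (adjusted p = 0.173) or 2 (adjusted p = 0.141), and the KO2 call without control replicate 1 (adjusted p = 0.342), control replicate 2 (adjusted p = 0.281), KO2 replicate 3 (adjusted p = 0.121) or KO2 replicate 4 (adjusted p = 0.145), and also with KO1 out of the fit (adjusted p = 0.130). Counts were low, 14 to 203 per library, and 50.8% of the Hyal1 exon bases are shared on the same strand with Naa80, an acetyltransferase gene, so the level is uncertain. Naa80 itself was at 10.1 ± 0.264 CPM in control and 10.8 ± 3.69 CPM in KO cells (log2 0.10 ± 0.35, adjusted p = 0.877).

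Per length, Hyal2 made up 91.6 to 99.1% of the Hyal1 and Hyal2 transcripts in every library. The length of Hyal1 includes the exon bases it shares with other genes (51.9%), where reads may not have been counted, and Hyal2 shares 0. The Hyal1 share may therefore be too low. The Hyal1 share was 1.06 and 1.504% in control, 3.37 to 8.40% in KO1 and 0.910 to 4.25% in KO2, above both controls in all 3 KO1 libraries and in 2 of the 4 KO2 libraries.

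Cd44 encodes the main cell surface receptor for hyaluronan, and lies on chromosome 2 from 102811141 to 102901665. It was at 579 and 462 CPM in control, 300.5, 369 and 409 CPM in KO1, and 663, 675, 449.7 and 516 CPM in KO2. All 3 KO1 libraries lay below both controls and below all 4 KO2 libraries, which overlapped the controls. Pooled KO cells differed from control by -0.11 ± 0.29 on the log2 scale (edgeR adjusted p = 0.834, exact permutation p = 0.694), a sign that turned to 0.08 without control replicate 1. KO1 against control was -0.53 ± 0.22 (adjusted p = 0.104), just outside the threshold, and passed with only control and KO1 libraries in the fit (adjusted p = 0.0385) or with at least 10 counts required in every library (adjusted p = 0.0780). KO2 against control was 0.15 ± 0.21 (adjusted p = 0.642), and -0.01 without control replicate 2. These counts are per gene and do not separate the splice forms of CD44.

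**Figure D3:**
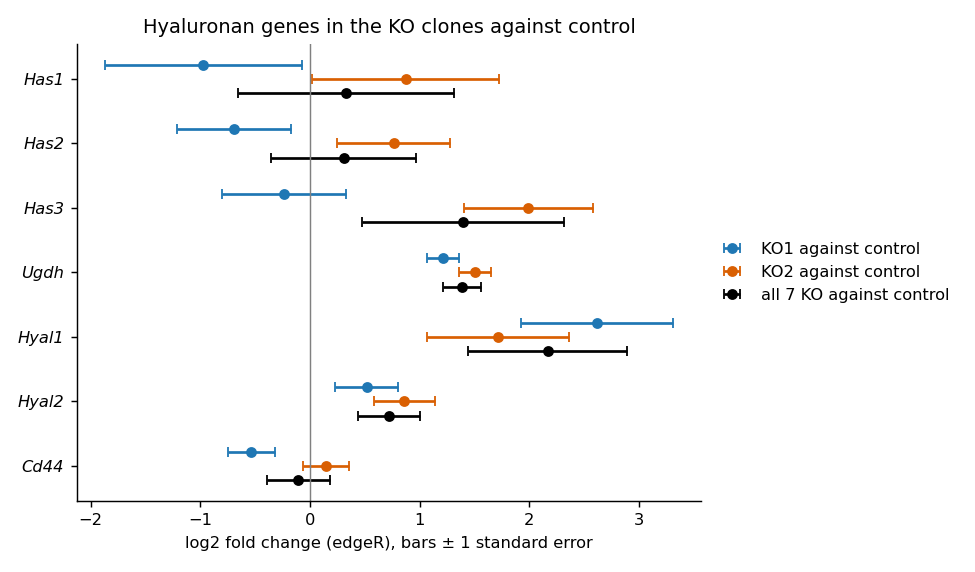
Log2 fold change against control (horizontal axis) for the 7 genes in KO1, KO2 and all KO libraries, with bars of 1 standard error from the edgeR fits. Ugdh, Hyal1 and Hyal2 lie above 0 in both clones, whereas Has2 lies at -0.69 in KO1 and 0.77 in KO2.

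Between the clones, 5 of the 6 genes other than Has2 were lower in KO1 than in KO2 and 1, Hyal1, was higher. As a description, the log2 difference was -2.22 ± 0.51 for Has3, -1.85 ± 0.78 for Has1, -0.68 ± 0.19 for Cd44, -0.34 ± 0.24 for Hyal2, -0.29 ± 0.12 for Ugdh and 0.91 ± 0.51 for Hyal1. Libraries of the clones did not overlap for Has3, Cd44 and Ugdh, 3 of 7 genes, as for 24.5% of all tested genes. Epithelial markers also moved with this contrast. Krt7, Krt8, Krt14 and Cldn3, 4 of the 9 tested, were called higher in KO1 than in KO2, where 19.6% of all tested genes were called in either direction. The 10 markers summed to 5830 to 7788 CPM in KO1, 2391 to 4755 CPM in KO2 and 4208 to 4378 CPM in control, and their part in the difference was not tested.

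Other genes of the pathway were taken from a list of 43, of which 20 were tested and 23 were too low. In KO against control 3 of the 20 were called higher and 3 lower, where 22.6% of all tested genes were called and 11.9% higher, with a median log2 fold change of -0.01 against 0.06 over all tested genes. Among the enzymes that make the precursors, 1 of 6 was called. Gnpnat1, the acetyltransferase on the way to UDP-N-acetylglucosamine, was at 62.3 and 72.5 CPM in control and 13.1 to 26.4 CPM in KO libraries, and fell by 1.96 ± 0.22 on the log2 scale (edgeR adjusted p = 0.00125). The other 5 (Ugp2, Gfpt1, Pgm3, Uap1 and Uap1l1) had log2 fold changes between 0.09 and 0.36 and adjusted p-values between 0.264 and 0.818. So the transcript of the enzyme for one sugar precursor, Ugdh, was higher in every KO library, and that of an enzyme for the other, Gnpnat1, was lower in every KO library.

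Of the 5 further breakdown genes tested, 2 were called higher and none was called lower, where 11.9% of all tested genes were called higher. Gusb, the lysosomal beta-glucuronidase, rose from 73.5 and 82.1 CPM in control to 188 to 322 CPM in KO libraries, by 1.70 ± 0.21 on the log2 scale (edgeR adjusted p = 0.00177). Cemip2, a cell surface protein with reported hyaluronidase activity, was at 49.5 and 54.7 CPM in control, 63.3 to 69.0 CPM in KO1 and 92.9 to 118 CPM in KO2, and rose by 0.77 ± 0.27 in KO cells (adjusted p = 0.0781). That call was lost without control replicate 1 (adjusted p = 0.306), control replicate 2 (adjusted p = 0.390) or KO2 replicate 1 (adjusted p = 0.106). KO1 was lower than KO2 by 0.65 ± 0.13 (log2 fold change -0.65, adjusted p = 0.0168), with no overlap, and this held under all 14 alternatives. Hyal3, a further hyaluronidase gene, was at 1.46 and 1.71 CPM in control and 0.703 to 1.45 CPM in KO libraries (log2 -0.75 ± 0.35, adjusted p = 0.177). Hexa, a lysosomal hexosaminidase gene, was at 27.2 and 29.7 CPM in control and 0 to 17.7 CPM in KO libraries (log2 -1.58 ± 1.08, adjusted p = 0.348). Neither passed, although for both all KO libraries lay below both controls. Groups did not overlap for 34.4% of all tested genes, in either direction.

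Of 4 further receptors tested, Hmmr, which encodes the hyaluronan and spindle protein RHAMM, was called higher, at 95.9 and 99.1 CPM in control and 107 to 177 CPM in KO libraries (log2 0.64 ± 0.19, edgeR adjusted p = 0.0504). The call was lost without control replicate 1 (adjusted p = 0.277) or 2 (adjusted p = 0.313). Tlr2, a pattern receptor that also binds hyaluronan fragments, did not pass in KO against control (-0.11 ± 0.57, adjusted p = 0.920), but was higher in KO1 than in KO2 by 1.46 ± 0.30 (adjusted p = 0.0180) under all 14 alternatives as well. Its levels were 14.1 to 33.4 CPM in KO1, 6.83 to 9.61 CPM in KO2 and 13.6 and 16.8 CPM in control. Tlr4 and Stab1 had adjusted p-values of 0.187 and 0.307 in KO against control.

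Of the 5 matrix proteins tested, the link protein genes Hapln3 and Hapln4 were called lower in KO cells. Both were below 1 CPM on average and are named here after their values were seen (log2 -2.57 ± 0.66 and -1.92 ± 0.35, edgeR adjusted p = 0.0279 and 0.00716). C1qbp, a mitochondrial protein first isolated as a hyaluronan binder, was higher in KO1 than in KO2 by 0.80 ± 0.22 (adjusted p = 0.0445). It was at 268 to 278 CPM in KO1, 126 to 237 CPM in KO2, and 160 and 184 CPM in control. That call was lost without KO1 replicate 1 (adjusted p = 0.119), 2 (adjusted p = 0.135) or 3 (adjusted p = 0.111). Vcan, the versican gene, was also called between the clones at 0.576 CPM on average, and is likewise named after its values were seen (log2 -1.74 ± 0.46, adjusted p = 0.0410). That call was lost without KO1 replicate 2 (adjusted p = 0.155) or 3 (adjusted p = 0.119). In all, 2 of the 20 pathway genes were called higher and 2 lower in KO1 against KO2, a share near the 19.6% of all tested genes.

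Among 10 genes whose products act with CD44, such as its cytoskeletal linkers and sheddases, 1 was called in KO against control, where 22.6% of all tested genes were, with a median log2 fold change of 0.18. Esrp1, the epithelial splicing regulator that acts on Cd44 exons, was at 508 and 519 CPM in control and 80.2 to 211 CPM in KO libraries, and fell by 1.77 ± 0.30 on the log2 scale (edgeR adjusted p = 0.00523) under all 16 alternatives as well. Spp1, the osteopontin gene, was at 725, 1204 and 1266 CPM in KO1, 87.9 to 424 CPM in KO2, and 165 and 316 CPM in control. The difference between the clones was 2.30 ± 0.54 (adjusted p = 0.0275) and missed the threshold without KO1 replicate 2 (adjusted p = 0.101). Nf2, which encodes merlin, was at 295 to 340 CPM in KO1, 179 to 263 CPM in KO2, and 194 and 197 CPM in control. It was called higher in KO1 than in KO2, by 0.48 ± 0.14 (adjusted p = 0.0626). That call was lost without any 1 of the 3 KO1 libraries (adjusted p = 0.120 to 0.187) and without KO2 replicate 1 (adjusted p = 0.120).

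**Figure D4:**
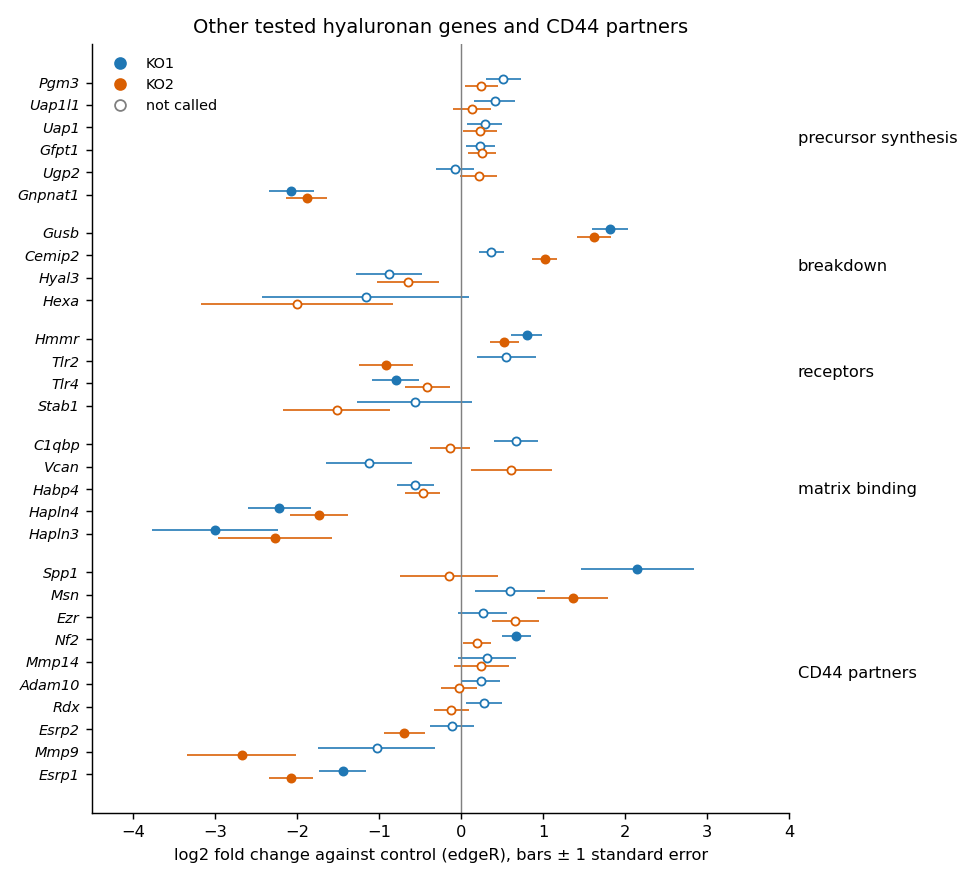
Log2 fold change against control (horizontal axis) of tested pathway genes and CD44 partners in KO1 and KO2, with bars of 1 standard error. Filled points passed an adjusted p of 0.1 and open points did not. Gnpnat1 and Esrp1 lie left of 0 and Gusb and Hmmr right of 0 as filled points in both clones.

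Along chromosome 15 the nearest tested genes on either side of Has2, other than Has2os, lay 759 kb (Sntb1), 1039 kb (Mtbp) and 1108 kb (Mrpl13) towards lower coordinates and 1000 kb (Zhx2) and 1175 kb (Derl1) towards higher coordinates. Zhx2, a transcription repressor gene, was lower in both clones, at 88.0 and 97.5 CPM in control, 26.0 to 38.3 CPM in KO1 and 26.5 to 45.2 CPM in KO2 (pooled log2 -1.47 ± 0.20, edgeR adjusted p = 0.00243). Mrpl13, a mitochondrial ribosomal protein gene, was called higher by 0.49 ± 0.18 (adjusted p = 0.0997), a call lost in 10 of 16 alternatives, among them leaving out either control (adjusted p = 0.353 and 0.431), any KO1 library (0.111 to 0.138) or KO2 replicate 1 or 3 (0.103 and 0.124). Sntb1, a syntrophin gene under 1 CPM, was higher in KO1 than in KO2 by 2.59 ± 0.82 (adjusted p = 0.0699), a call lost without KO1 replicate 1 (adjusted p = 0.179) or 2 (adjusted p = 0.205). Mtbp and Derl1 passed neither in KO against control (adjusted p = 0.174 and 0.569) nor between the clones (adjusted p = 0.321 and 0.106).

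ChIRP-seq recovers DNA bound near an RNA with biotin-labelled probes against that RNA. The peak lists come from MaTAR25 probes in wild-type 4T1 cells (all 14 probes, the even pool and the odd pool) and in NDL mammary tumor cells (all 14 probes). The NDL cells are given as primary cells of FVB mice, with a genotype label that reads MMTV-PyMT. For its ChIRP-seq outside 4T1 the paper names cNeu (MMTV-Neu-NDL) cells, which its methods list as a murine cell line. Replicates were pooled before peaks were called against a pulldown with Ppib probes, so these values have no replicate error, and scores are set side by side only within a list. The 2 highest peaks within 200 kb of Has2 in the list of all probes in 4T1 cells flanked the gene at chr15:56505118-56505868, 159.8 kb beyond its downstream end, and at chr15:56797864-56798614, 103 kb upstream of its start. Their scores were 1356 and 1286, ranks 13 and 19 of 76806 peaks. In the even list the overlapping peaks scored 948 and 978 (ranks 17 and 14 of 64607), and in NDL cells 694 and 563 (ranks 151 and 400 of 70329). In the odd list the first scored only 58.4 (rank 23837 of 61311) and the second 2168 (rank 49). The lists annotate both as intergenic and give Gm49213 for the first and Gm5673 for the second as the nearest promoter, not Has2. Both were picked as the highest in their window. How many genes have peaks of such ranks within 200 kb was not counted.

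The sequences around the longest run that each of these peaks shares with a MaTAR25 probe are shown because they set the peaks beside the probes. Capitals mark the shared run, which lies on the plus strand of GRCm38 in both, and the probe that holds it follows its peak.
chr15:56505305-56505505: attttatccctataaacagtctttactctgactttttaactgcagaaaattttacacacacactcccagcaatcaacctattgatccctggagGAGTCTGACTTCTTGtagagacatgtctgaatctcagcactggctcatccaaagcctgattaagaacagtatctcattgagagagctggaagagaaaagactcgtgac
MaTAR25 probe 2: aaGAGTCTGACTTCTTGgca
chr15:56798033-56798233: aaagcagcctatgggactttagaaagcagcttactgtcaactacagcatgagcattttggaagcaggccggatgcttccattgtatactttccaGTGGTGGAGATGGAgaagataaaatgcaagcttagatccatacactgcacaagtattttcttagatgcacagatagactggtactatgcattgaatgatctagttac
MaTAR25 probe 4: cagGTGGTGGAGATGGAatg

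The first peak holds 15 consecutive bases of probe 2 and the second 14 of probe 4, out of 20 bases each. Both probes have even numbers, and taking the pools by probe number, the longest run of an odd-numbered probe was 9 bases in the first peak and 8 in the second. A run of at least 14 bases of any of the 14 probes, on either strand, lay within 301 bases around the centre of 3.46% of all peaks of the 4T1 list of all probes and of 52 of its 100 highest peaks. Whether the probes met the DNA at these runs was not tested. By qPCR after a pulldown with the even probes, the paper reports weaker MaTAR25 binding at Has2 in knockout cells of PURB, a MaTAR25-binding protein. It reports no such drop in knockout cells of the related protein PURA.

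Within 100 kb of the Has2 gene body each list had 4 peaks, with highest scores of 105 (all probes), 89.4 (even), 65.2 (odd) and 54.1 (NDL). The median protein-coding gene had 8, 6, 6 and 7 peaks in that window, and 12.5, 21.2, 20.6 and 14.8% of genes had fewer than Has2. Both flanking peaks described above lie outside this window. Within 200 kb Has2 had 16, 17, 11 and 11 peaks, counts that were not set beside those of all genes. The lists assign 1, 0, 2 and 1 peaks to the Has2 promoter as the nearest one, the closest of them 13.03 kb upstream of the gene, and only the NDL list had a peak inside the gene body, with a score of 24.3. Has3 had 7, 6, 4 and 5 peaks within 100 kb, at or below the median protein-coding gene in each list. The lists assign 5, 4, 3 and 4 peaks to its promoter, with highest scores of 301, 252, 82.1 and 115. These promoter counts were not set beside those of all genes. Cd44, a gene of 90.5 kb, had 17, 20, 12 and 14 peaks within 100 kb, more than 92.2 to 97.9% of protein-coding genes, whose windows differ in width with gene length. In the even list chromosome 3 held 0 peaks and chromosome 2, which carries Cd44, held 8877 against 5666 in the list of all probes, so the Cd44 count of the even list is uncertain. Has1, Hyal1, Hyal2 and Ugdh had 2 to 9 peaks within 100 kb in each list, and Hyal1 and Hyal2, which lie side by side, shared the highest of theirs.

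**Figure D5:**
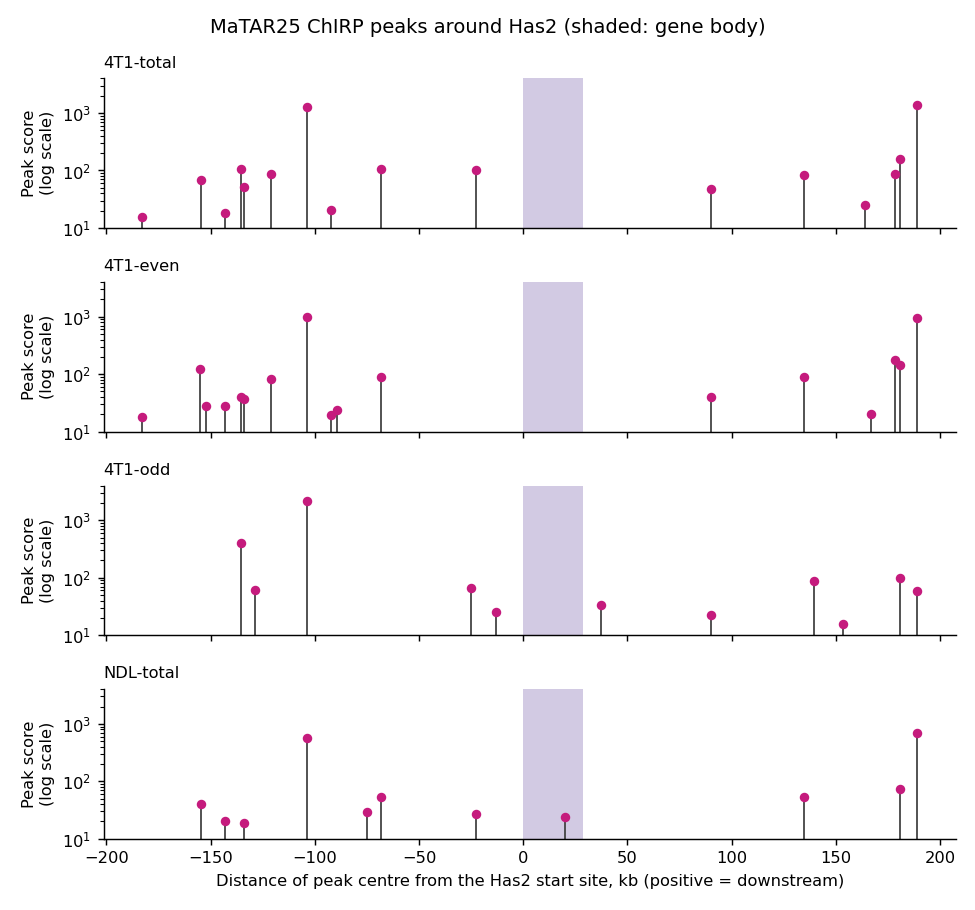
Score of each MaTAR25 ChIRP peak (vertical axes, log scale) against the distance of its centre from the Has2 start site in kb, positive downstream, in the 4 lists. The shaded band is the gene body. The flanking peaks at 189 kb and -104 kb stand highest in the list of all probes, at 1356 and 1286.

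Over the 9 libraries, the genes whose log2 level most resembled that of Has2 among the 12027 genes averaging 1 CPM or more were Nbeal2 (Pearson r = 0.96), Ppp1r18 (0.95), Fhl3 (0.94), Fgfr2 (0.94) and Peak1 (0.94). For Cd44 they were Map7d1 (0.97), Cdc26 (0.96), Hmga2 (0.95), Phc2 (0.95) and Gsg1 (0.95). Peak1, a kinase-like cytoskeletal protein gene, was at 164 CPM on average in control, 125 CPM in KO1 and 294 CPM in KO2, and Hmga2, a chromatin protein gene, at 260.2, 139 and 308 CPM. These libraries fall into 3 groups and share their clones, so the likeness is a description of this set of libraries.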

How the data were processed

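The RNA-seq values deposited by the authors are raw counts per GENCODE gene, 1 library per file, made with STAR (GRCm38) and HTSeq from single-end reads. The table of KO2 replicate 2 repeats every gene 3 times, and 1 copy was kept. For ChIRP-seq, the deposited HOMER peak score comes from replicates that the authors pooled and called against the Ppib pulldown. How it was scaled is not stated here.

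Counts were fitted in R 4.3.3 with edgeR 4.0.16 (TMM, filterByExpr, quasi-likelihood test, Benjamini-Hochberg adjustment over 15023 genes, threshold 0.1), with KO as 1 group or with 3 groups for the clones. CPM used TMM library sizes. Levels per kb used exon lengths of GENCODE vM21. Single genes were compared by two-sided exact permutation of mean log2(CPM + 1), 7 tests in all, unadjusted. Alternatives were DESeq2 1.42.0, RLE size factors, no filter, at least 10 counts in every library, a threshold of 0.05, other fits, pseudocounts of 0.1 and 10 CPM, and leaving out each library. The fits were tested on simulated counts. Peaks within 100 kb of a gene body were counted, with windows of 50 and 200 kb, a score of at least 100 and the nearest promoter as alternatives. Sequences came from RefSeq GRCm38.p6 through samtools 1.23.1 and probes from the study's probe table.

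The genes and lists were chosen with earlier results of these data known. Named are the 7 genes, MaTAR25, Has2os, per list up to 3 called genes in each direction with a mean of at least 1 CPM, in KO against control and in KO1 against KO2, 3 tested neighbours of Has2 on each side and the 5 genes most like Has2 and Cd44. One listed gene enters the counts and is not reported here by itself. The precision of counts is limited by 2 control libraries.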

Additional observations from a re-analysis of the deposited data

Results flagged for a closer look

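A library far from the others of its group (Dixon's gap over range, above 0.829 for 4 libraries or 0.568 for 7) appeared in 4 of 46 pairs of gene and group. In a single uniform group chance flags about 1 in 20. That rate cannot be set beside this count, because the 7 KO libraries mix 2 clones and include the 4 KO2 libraries. Has3 in KO2 replicate 1 was one, at 0.600 of the range of the 7 KO libraries. Gnpnat1 in KO2 replicate 2 stood apart within KO2 (0.864) and within all KO libraries (0.643). C1qbp in KO2 replicate 3 stood apart within KO2 (0.941), where it was at 237 CPM and the other 3 libraries at 126 to 133 CPM.

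Of the pathway genes, CD44 partners and Has2 neighbours named by the stated rule, 6 passed the edgeR test between the clones. Vcan and the epithelial markers given above are not among these. Tlr2, C1qbp, Spp1 and Nf2 were named only because they passed this same test, and Cemip2 was named partly for it. Their number is therefore fixed by the rule and is no result, and 19.6% of all tested genes passed this test. The log2 fold change of KO1 against KO2 was -0.65 for Cemip2, 1.46 for Tlr2, 0.80 for C1qbp, 2.30 for Spp1, 0.48 for Nf2 and 2.59 for Sntb1, with adjusted p-values of 0.0168 to 0.0699.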

How the results depend on the processing

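Of 707 single values recomputed under alternatives, 604 stayed the same and 77 lost and 15 gained a call. A further 3 moved by more than 1 standard error and 8 changed sign, and the cause was not tested. Staying the same meant keeping direction and side of the threshold. For values given without a test it meant keeping direction and shifting by less than 1 standard error. For exact permutation p-values it meant keeping the side of 0.05. In KO against control 1 of the 7 genes was called with no filter on low counts and 1 at a threshold of 0.05, against 2; leaving out 1 library gave 1 to 3, and 2 to 8 against 6 of the other hyaluronan genes. In KO1 against control 4 were called with only the groups compared in the fit, and 15 of the other hyaluronan genes against 6. That fit also called more genes in all, 7752 against 4750, so these higher counts are not particular to the hyaluronan genes. Leaving out 1 library gave 1 to 2 in KO1, and 3 to 6 of the others. In KO2 against control 2 were called at 0.05, against 4, and leaving out 1 library gave 1 to 4, and 4 to 9 against 7 of the others. For KO1 against KO2 leaving out 1 library gave 2 to 5 of the others, against 4. By the exact permutation test 2 genes passed 0.05 at a pseudocount of 0.1 CPM, against 1. The log2 change of Has1 in KO cells turned to -0.0484 in the fit with 3 groups. Without 1 library, Has2 in KO cells ranged from -0.0610 to 0.82, with -0.0382 without KO2 replicate 1, and Cd44 from -0.26 to 0.0789. In KO2, Cd44 ranged from -0.00551 to 0.33 and Has2os from -0.76 to 0.26, with 0.06 and 0.16 without KO2 replicates 2 and 3. The peak counts of the 7 genes within 100 kb, in which a peak near both Hyal1 and Hyal2 counts for each, summed to 182 over the 4 lists and became 106 at 50 kb, 402 at 200 kb, 27 with a score of at least 100 and 27 by the nearest promoter. Counts over all genes ranged from 462 to 4970 in KO, 1482 to 7752 in KO1, 1366 to 5352 in KO2, and 874 to 4077 between the clones. Replicate numbers did not pair the libraries (r of deviations of same-numbered libraries -0.15 to 0.04), and with the replicate block 2 of the 7 genes were called in KO, 3 in KO1 and 3 in KO2, with 4, 6, 7 and 3 of the other hyaluronan genes in the 4 comparisons, and 1952 genes in all in KO, against 3392. Under this block Hyal1 lost its call in KO (adjusted p = 0.186) and KO2 (0.300), Hyal2 gained one in KO (0.0853) and KO1 (0.0790), and MaTAR25 (KO and KO2), Has2os (KO1), Cemip2, Hmmr and Mrpl13 (KO), and Nf2 and Vcan (between the clones) lost theirs. Leaving out control replicate 1 or 2 left 1 of the 7 genes called, Ugdh, in each comparison with control, and gave the lowest counts over all genes there, while between the clones the lowest, 874, came without KO1 replicate 2.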
